A study of Mus musculus with 14 samples.

Results

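Haemoglobin genes of the mouse were read in CEL-Seq tables of cells from the aorta-gonad-mesonephros (AGM) region, of yolk sac (YS) cells and of whole intra-aortic haematopoietic clusters (wIAHCs). The members are all genes whose symbol begins with Hba- or Hbb-, which gave 7 of the 19425 genes in the wIAHC table, and the same 7 stood in the E10 and E11 single-cell tables. Of these 7 genes, 3 are embryonic (Hbb-y, Hbb-bh1 and Hba-x) and 4 are adult (Hba-a1, Hba-a2, Hbb-b1 and Hbb-b2). The study asked how haematopoietic stem cells arise in the aorta. It covered non-haemogenic endothelial (non-HE) cells, haemogenic endothelial (HE) cells, cells in endothelial-to-haematopoietic transition (EHT), IAHC cells, the stem cell precursors called pre-HSCs, YS cells and wIAHCs. All were taken at embryonic day (E)10, with 28 to 32 somite pairs, or at E11, with more than 40 somite pairs.

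Sorting for Cdh5+ Gfi1b- gave 3 populations, of which non-HE cells were Gfi1- c-kit-, HE cells were Gfi1+ c-kit- and EHT cells were Gfi1+ c-kit+. They came from ICR embryos labelled with the genotype Gfi+/tomato/ Gfi1b+/GFP, in which reporter alleles mark Gfi1 and Gfi1b. The reporter alleles came from the fathers, which were mated to wild-type ICR females. IAHC cells, pre-HSCs, YS cells and wIAHCs came from wild-type C57BL/6 embryos, so strain and cell population cannot be told apart between these series of samples. IAHC cells were sorted as c-kit+ CD31+ at both stages and at E11 also as c-kit+, and the study then kept cells by their Gpr56 transcripts and left out those with genes of other aortic cells. In the tables, Gpr56 was at 0 in none of the IAHC cells and in none of the pre-HSCs, against 17 of 191 E10 EHT, 16 of 141 E10 YS and 8 of 46 E11 YS cells, so these populations were not chosen alike. Pre-HSCs were E11 c-kit+ Cdh5+ cells with recorded CD45, divided into type I and type II by the column names, and YS cells were c-kit+ cells of digested yolk sacs. AGM regions were pooled before digestion for IAHC cells, while the methods do not mention pooling for the other cells. The labels name no embryo, so no cell can be traced to one. The aorta was flushed of blood before dissection. Whole clusters were picked one by one from thick slices of trunks stained for c-kit, and their ventral or dorsal position was recorded. The columns of E10 non-HE cells are named Early_E11_Endo although the sample is labelled E10.

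Globin genes encode the chains of haemoglobin, the oxygen carrier of red cells. A haemoglobin molecule pairs alpha-type with beta-type chains around haem. In the mouse embryo, primitive red cells form in the YS and circulate with the embryonic zeta chain (Hba-x), epsilon-y chain (Hbb-y) and beta-h1 chain (Hbb-bh1), and they are known to move from Hbb-bh1 to Hbb-y as they mature. The definitive red cells that follow use adult alpha (Hba-a1, Hba-a2) and beta (Hbb-b1, Hbb-b2) chains, which does not make these genes a mark of definitive cells alone. Globin transcription needs erythroid factors such as Gata1, Klf1 and Tal1, which act through distant enhancers and through GATA, CACCC and CCAAT sequences in the promoters.

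In the GRCm38 annotation (GENCODE M21), Hba-x lies at chr11:32276400-32278116, Hba-a1 at chr11:32283511-32284465 and Hba-a2 at chr11:32296489-32297298, all on the plus strand. Hbb-bh1 lies at chr7:103841637-103843164 and Hbb-y at chr7:103851749-103853216, both on the minus strand. All 5 are protein-coding. Hbb-b1 and Hbb-b2 had no entry of that name in this annotation, so 5 of the 7 members have a position here. The promoters of 3 members are shown because these genes head the 3 classes described: the most abundant embryonic beta-type gene, the embryonic alpha-type gene and an adult alpha-type gene. Each window is the 200 bases before the RefSeq transcription start (GRCm38.p6), written 5′ to 3′ on the gene's own strand, and lies at chr7:103853208-103853407 for Hbb-y, chr11:32276400-32276599 for Hba-x and chr11:32283472-32283671 for Hba-a1. Capitals mark CACCC and GATAA as well as CCAAT and ATAAA, on either strand.
Hbb-y: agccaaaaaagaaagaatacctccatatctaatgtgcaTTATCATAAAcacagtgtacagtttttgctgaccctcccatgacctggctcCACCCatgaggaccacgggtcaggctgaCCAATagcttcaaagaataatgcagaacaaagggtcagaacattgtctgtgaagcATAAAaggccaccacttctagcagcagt
Hba-x: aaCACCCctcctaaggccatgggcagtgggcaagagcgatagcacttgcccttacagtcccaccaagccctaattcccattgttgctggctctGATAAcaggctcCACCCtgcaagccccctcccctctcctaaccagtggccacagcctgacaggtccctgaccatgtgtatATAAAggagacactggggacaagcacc
Hba-a1: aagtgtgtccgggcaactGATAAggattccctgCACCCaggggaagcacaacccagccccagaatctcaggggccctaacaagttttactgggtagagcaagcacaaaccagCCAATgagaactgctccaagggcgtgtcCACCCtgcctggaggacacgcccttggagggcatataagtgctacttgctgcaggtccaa

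All 3 windows held CACCC and GATAA. The letters CCAAT stood in those of Hbb-y and Hba-a1, and ATAAA in those of Hbb-y and Hba-x. In Hbb-y, CACCC began 111 bases before the start, CCAAT 83, GATAA 162 on the other strand, and ATAAA 157 and 28. In Hba-x, CACCC began at 198 and 95, GATAA at 107 and ATAAA at 27, while in Hba-a1 CACCC began at 167 and 60, GATAA at 182 and CCAAT at 88. Of 32851 RefSeq windows of this length, 45.5% held CACCC, 18.1% GATAA, 29.3% CCAAT and 30.8% ATAAA. These letters are therefore common, and a match is a description of the sequence only.

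Near-identical copies limit what a transcript count can say about single adult genes. The Hba-a1 and Hba-a2 transcripts, of 699 and 554 bases, share a run of 415 identical bases, so their split is uncertain and their sum is safer. For the adult beta genes, this annotation holds Hbb-bs and Hbb-bt, whose transcripts of 628 and 703 bases share a run of 430. Sequences named Hbb-b1 and Hbb-b2 were not available for this comparison. How far their counts can be split was therefore not checked. The embryonic genes share little with those compared: the longest identical run was 26 bases between Hbb-y and Hbb-bh1 and 18 bases between Hba-x and Hba-a1. CEL-Seq counts 3′ ends tagged with unique molecular identifiers (UMIs), so 1 molecule gives 1 count whatever its length, and levels of the members are compared as transcripts.

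Every E10 cell had been set to 3000 transcripts and every E11 cell to 5000, and 546 E10 and 575 E11 cells were analysed, none of them with the same values as another. Of 109 wIAHC libraries, the 57 with at least 5000 transcripts were used, and these held 5099 to 115300 transcripts. They comprised 21 ventral and 7 dorsal wIAHCs at E10 and, at E11, a collection set 1 (4 ventral, 6 dorsal) and a collection set 2 (13 ventral, 6 dorsal), which are told apart by the column names alone. The sets differed in their spike-in (ERCC) transcripts, with a median of 803 per library in set 1, 16.6 at E10 and 0 in 18 of 19 libraries of set 2. Their part in the results below was not tested.

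In single cells, globin transcripts were most frequent in YS cells, pre-HSCs and E10 IAHC cells, and were rare in non-HE and EHT cells. Levels are given as globin transcripts per 10000 transcripts, with the exact 95% Poisson interval, which covers counting error only. Each population is 1 sample, so no test was run between populations, and the spread over sorted sets is given instead.

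Non-HE cells, an endothelium that should not use globin genes, give the background against which the other populations are read. At E10, 4 of 43 non-HE cells (9.30%) had a globin transcript, and the level was 0.310 per 10000 (interval 0.0845 to 0.794). At E11, 3 of 30 (10%) had one, and the level was 0.333 (0.108 to 0.778), with 0.909 in the set p01 and 0 in the 19 cells of the set p19. That 0 allows up to 15.8% of cells with a transcript detected at this depth, and it does not limit the share expressing globin. EHT cells, the Gfi1+ cells gaining c-kit, did not stand above this level as populations, with 5 of 191 cells (2.62%) and 0.122 per 10000 at E10 and 3 of 46 cells (6.52%) and 0.174 per 10000 at E11. Within E10 EHT cells, the set p24 had 0.313 per 10000, p12 had 0.0383 and p10 had none in 40 cells. A globin signal above that of non-HE cells was therefore not detectable in EHT cells at this depth.

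HE cells, the Gfi1+ endothelium before c-kit, stood above non-HE cells in the set p21 at E10. At E11 they stood above the pooled non-HE cells, but sets and populations cannot be told apart there. At E10, 42 of 98 HE cells (42.9%) had a globin transcript, with 30 transcripts of Hbb-y, 18 of Hbb-bh1, 17 of Hba-x and 3 of Hba-a1. The set p21 had 3.55 per 10000 (2.74 to 4.53) with 39 of 61 cells, and the set p20 had 0.270 (0.0557 to 0.790) with 3 of 37 cells, so these sets of the same population and stage did not overlap. Erythroid markers did not follow this split: their level was 0.0984 transcripts per cell in p21 and 0.0811 in p20, and only Epor and Slc4a1 of 8 were seen in p21. Macrophage markers stood at 0.213 transcripts per cell in p21 and 0.0270 in p20, and their part in the result was not tested. At E11, 17 of 46 HE cells had a globin transcript (37.0%, or 26.4% expected at 3000 transcripts), with 17 transcripts of Hbb-y, 3 of Hbb-bh1 and 10 of Hba-x and a level of 1.3 per 10000.

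IAHC cells had much globin at E10 and little at E11. Of 73 E10 c-kit+ CD31+ IAHC cells, 38 (52.1%) had a globin transcript, at 5.30 per 10000 (4.38 to 6.35), and the highest cell had 16. Of 201 E11 c-kit+ CD31+ IAHC cells, 25 had one (12.4%, or 8.28% expected at 3000 transcripts), at 0.358 per 10000 (0.251 to 0.496), which is close to the non-HE level. The 4 sorted sets of these E11 cells ran from 0.186 to 0.560 per 10000. E10 IAHC cells came from 1 sorted set, so stage and set cannot be told apart. Among 89 E11 c-kit+ IAHC cells, 13 had a globin transcript and the level was 1.01 per 10000, which rested on few cells. The set named 3_2 had 4.0 per 10000, with 16 and 14 Hbb-y transcripts in its highest cells, against 0 to 0.800 in the other 4 sets, and without the highest cell the population level was 0.659.

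Pre-HSCs carried globin in a set-dependent way that type I and type II shared. Over all sets, 47 of 62 type I cells (75.8%, or 65.3% expected at 3000 transcripts) and 37 of 55 type II cells (67.3%, or 57.0%) had a globin transcript, at 7.13 (6.22 to 8.13) and 4.98 (4.2 to 5.89) per 10000. In type I cells, the sets numbered 1, 2 and 3 had 0.250, 3.65 and 15.8 per 10000, with 1 of 8, 26 of 34 and 20 of 20 cells. In type II cells, the same set numbers had 0.200, 3.44 and 9.30 per 10000, with 1 of 10, 17 of 25 and 19 of 20 cells. Set 3 was highest and set 1 lowest in both types, and the intervals of the 3 type I sets did not overlap.

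YS cells had the highest level of all populations at E11, and at E10 they stood below E10 IAHC cells. At E10, 65 of 141 YS cells (46.1%) had a globin transcript, at 4.02 per 10000 (3.44 to 4.67), with 4.46 and 3.64 in the 2 sorted sets. At E11, all 46 YS cells had one (93.8% expected at 3000 transcripts), at 9.43 per 10000 (8.22 to 10.8). Set 3 of the type I pre-HSCs alone stood higher, at 15.8. The E11 YS cells are 1 sorted set.

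**Figure D1:**
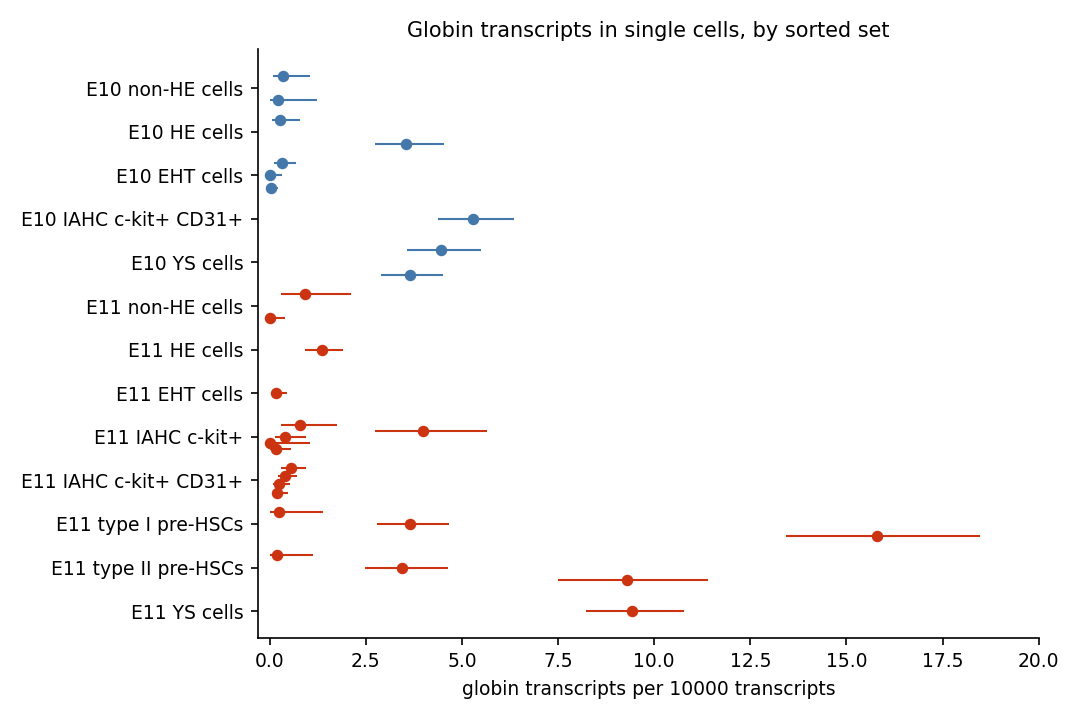
Globin transcripts per 10000 transcripts in single cells, with 1 point for each sorted set of a population, coloured blue for E10 and red for E11, and exact 95% Poisson intervals as bars. Sets of the same population separate in HE cells at E10 (0.270 and 3.55) and in pre-HSCs, while the 2 sets of E10 YS cells lie at 4.46 and 3.64.

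The embryonic beta-type genes differed in which one led. In E10 YS cells Hbb-bh1 led in transcripts, with 105 against 40 of Hbb-y. Hbb-y thus made up 27.6% of the pair (exact Clopper-Pearson interval 20.5% to 35.6%), and the sorted sets gave 25.7% and 29.6%. By cells the 2 genes were nearly even, with Hbb-y seen in 31 and Hbb-bh1 in 34 of 141. In E11 YS cells Hbb-y led, with 126 transcripts against 35, or 78.3% (71.1% to 84.4%). The intervals of the 2 stages did not overlap, and each cell was counted in full although transcripts of 1 cell are not independent. Much of the Hbb-bh1 lead at E10 came from few cells. The E10 YS cell with the most globin had 16 Hbb-bh1, no Hbb-y and 2 Hbb-b2 transcripts, and the next had 12 Hbb-bh1 and 2 Hbb-y.

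At E10, aortic cells had another balance of these transcripts. Hbb-y made up 69.1% (58.9% to 78.1%) of the pair in E10 IAHC cells, from 67 and 30 transcripts, and 62.5% (47.4% to 76.1%) in E10 HE cells. Both intervals, which cover counting error only, lay above that of E10 YS cells. By cells the contrast was smaller: Hbb-y and Hbb-bh1 were seen in 24 and 19 of 73 E10 IAHC cells. In E10 HE cells they were seen in 21 and 17 of 98, and no test was run. At E11 the share was 77.4% in type I pre-HSCs, 81.4% in type II pre-HSCs, 85.0% in HE cells, 88.1% in c-kit+ IAHC cells and 70.0% in c-kit+ CD31+ IAHC cells, all with intervals that overlapped that of E11 YS cells. The Hbb-y transcripts of c-kit+ IAHC cells came mostly from the cells of set 3_2 named above.

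**Figure D2:**
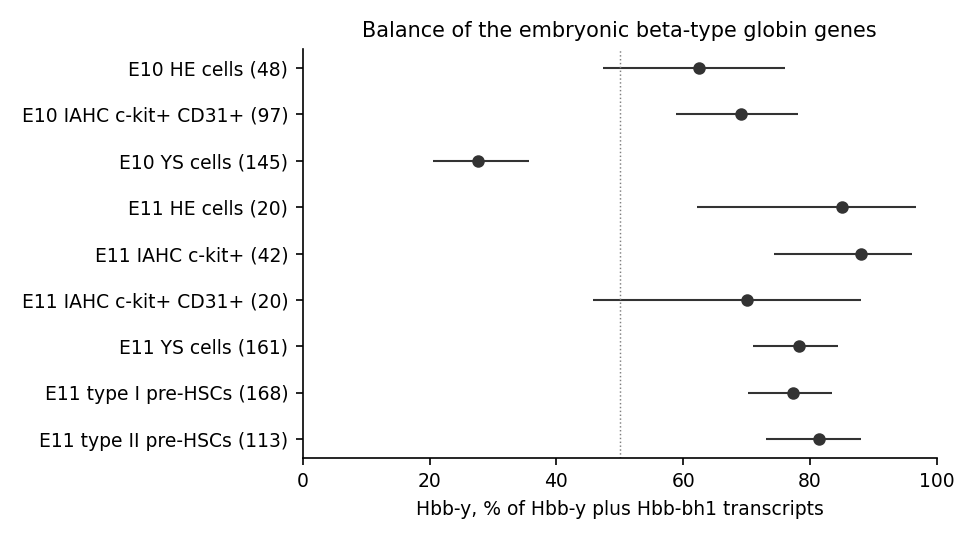
Hbb-y as a percentage of Hbb-y plus Hbb-bh1 transcripts in each population with at least 20 such transcripts (their number in brackets), with exact 95% Clopper-Pearson intervals and a dotted line at 50%. E10 YS cells, at 27.6%, are the one population below the line.

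Hba-x, the embryonic alpha-type gene, had fewer transcripts than the embryonic beta-type genes together in every population where it was seen, but more than Hbb-bh1 alone in E11 YS cells, type I pre-HSCs and E11 HE cells. It had 53 transcripts in E11 YS cells, 41 in type I and 15 in type II pre-HSCs, 19 in E10 YS cells, 17 in E10 HE cells, 11 in E10 IAHC cells and 10 in E11 HE cells. It was not seen in non-HE, EHT or E11 c-kit+ IAHC cells. Per embryonic beta-type transcript there were 0.5 Hba-x transcripts in E11 HE cells, 0.354 in E10 HE cells, 0.329 in E11 YS cells, 0.244 in type I pre-HSCs, 0.133 in type II pre-HSCs, 0.131 in E10 YS cells and 0.113 in E10 IAHC cells. All 46 E11 YS cells had an embryonic beta-type transcript and 29 of them also had Hba-x, whereas of 141 E10 YS cells 56 had a beta-type transcript, 17 had Hba-x and 11 had both.

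Adult globin genes were near the limit of detection in single cells. They gave 3 transcripts in 43 E10 non-HE cells, or 0.233 per 10000 (0.0480 to 0.680), and 1 in 30 E11 non-HE cells, or 0.0667 (0.0017 to 0.371). All other populations were within or below these intervals apart from type I pre-HSCs, at 0.387 per 10000 (0.200 to 0.676), whose own interval overlapped both. No difference in the adult sum is therefore read, which does not show that there was none. This background is also of ICR embryos, while IAHC cells, pre-HSCs and YS cells are C57BL/6. E11 c-kit+ CD31+ IAHC cells had 15 (0.149 per 10000), of which 14 were Hbb-b1 in 9 of 201 cells, type I pre-HSCs had 12 (7 of Hbb-b1 and 5 of Hba-a1), type II pre-HSCs had 9 (8 of Hbb-b1), E10 IAHC cells had 8 (6 of Hbb-b1 and 2 of Hba-a2), E10 YS cells had 6 and E11 YS cells had 3. Most of the adult transcripts of c-kit+ CD31+ IAHC cells and pre-HSCs were thus written under Hbb-b1, whose split from Hbb-b2 was not checked. None was written under Hbb-b1 in non-HE, HE or EHT cells, which are the ICR populations, so strain and cell type cannot be told apart here.

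The genes that make and run a red cell were followed through 3 lists: 13 erythroid and globin transcription factors, 11 genes of haem synthesis and iron uptake, and 17 genes of the red cell membrane and its function. Transcripts of the transcription factors were most frequent in E10 YS cells, at 22.5 per 10000 with all 13 seen, against 10.2 to 15.5 in the IAHC populations, both types of pre-HSCs and E11 YS cells. Haem and iron genes stood at 9.13 per 10000 in E10 YS cells and 6.39 in E11 YS cells, against 2.7 to 4.58 in the IAHC populations and pre-HSCs. Red cell genes stood at 5.84 and 6.22 in the 2 YS populations and at 3.11 to 4.22 in the IAHC populations and pre-HSCs. These are sums over unlike genes, several of which (Lmo2, Myb, Tfrc) are not confined to red cells.

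A shorter list of 8 erythroid markers, among them Gata1, Klf1, Epor and Alas2, was set beside globin. In E10 YS cells there were 1.08 marker transcripts per cell, or 89.4 per 100 globin transcripts. In E11 YS cells there were 0.891 per cell, or 18.9 per 100 globin transcripts. Per 100 globin transcripts there were 2.72 marker transcripts in type I and 5.84 in type II pre-HSCs and 4.31 in E10 IAHC cells. The E11 IAHC cells, with little globin, had 46.7 (c-kit+) and 88.9 (c-kit+ CD31+). In the globin-rich set 3 of type I pre-HSCs, 158 globin transcripts in 20 cells stood beside 3 marker transcripts (1 each of Klf1, Epor and Slc4a1), and IAHC markers (Kit, Gpr56, Runx1, Gfi1 and Ptprc, of which Gpr56 was used to choose IAHC cells) stood at 7.35 per cell there and at 7.88 in the globin-poor set 1. Macrophage markers stood at 0.850 per cell in that set 3 and 0.250 in set 1, and endothelial markers at 4.6 and 7.63, and their part in the result was not tested. The type I cell with the most globin had 13 Hbb-y, 5 Hbb-bh1, 3 Hba-x and 1 Hba-a1 transcripts and none of the 8 erythroid markers. The part of RNA from red cells in these levels was not tested.

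Within E10 YS cells, Klf1 and Epor were seen in the largest share of cells where globin was highest. Klf1, an activator of the globin locus, was seen in 14 of 76 cells without globin (18.4%), 16 of 56 with 1 to 4 globin transcripts (28.6%) and 7 of 9 with 5 or more (77.8%, interval 40.0% to 97.2%). Epor, the receptor for erythropoietin, was seen in 6.58%, 5.36% and 55.6% of these cells. Gata1 did not show such an order, with 27.6%, 41.1% and 33.3%. In E11 YS cells with 1 to 4 globin transcripts (24 cells) and with 5 or more (22 cells), Klf1 was seen in 16.7% and 18.2%, Epor in 4.17% and 4.55% and Gata1 in 37.5% and 18.2%. The difference between the stages was not tested. In the 7 E10 IAHC cells with 5 or more globin transcripts, Gata1 was seen in 1 cell and Klf1 and Epor in none. These cells share 1 sample and were graded by globin itself, so the shares are a description.

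Over the 13 populations, the genes whose level was most like that of the embryonic globins were Lars2 (Pearson r 0.739), Stoml2 (0.718) and Aldh2 (0.713), followed by Rbm42, Ndufb10, Mrto4, St13 and Use1 with 0.688 to 0.696. Lars2 encodes the mitochondrial leucyl-tRNA synthetase and Aldh2 a mitochondrial aldehyde dehydrogenase. These were the highest of 2418 genes compared over only 13 points, of which those from the same stage share a depth, and none of the 8 is a gene of the erythroid lists.

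In wIAHCs, globin was higher at E11 than at E10, and nearly all of this stood in collection set 2. Globin made up 0 to 0.0518% (median 0.0138%) of transcripts in E10 ventral wIAHCs and 0.00785% to 0.0541% (median 0.0301%) in E10 dorsal wIAHCs. E11 set 1 ran from 0.0073% to 0.164% (median 0.0532%) on the ventral side and from 0.0116% to 0.174% (median 0.0388%) on the dorsal side. E11 set 2 ran from 0.192% to 23.6% (median 0.334%) on the ventral side and from 0.206% to 27.5% (median 0.432%) on the dorsal side. By observed UMIs, before the correction for collisions, the highest values on the 2 sides of set 2 were 10.9% and 15.7%. Every library of set 2 lay above every library of set 1 and of E10, and the median of set 2 was 9.12 times that of set 1 and 22.8 times that of E10. Each wIAHC is one picked cluster of several cells, so fewer globin-expressing cells and less globin RNA per cell cannot be told apart. A share also falls when other transcripts rise.

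**Figure D3:**
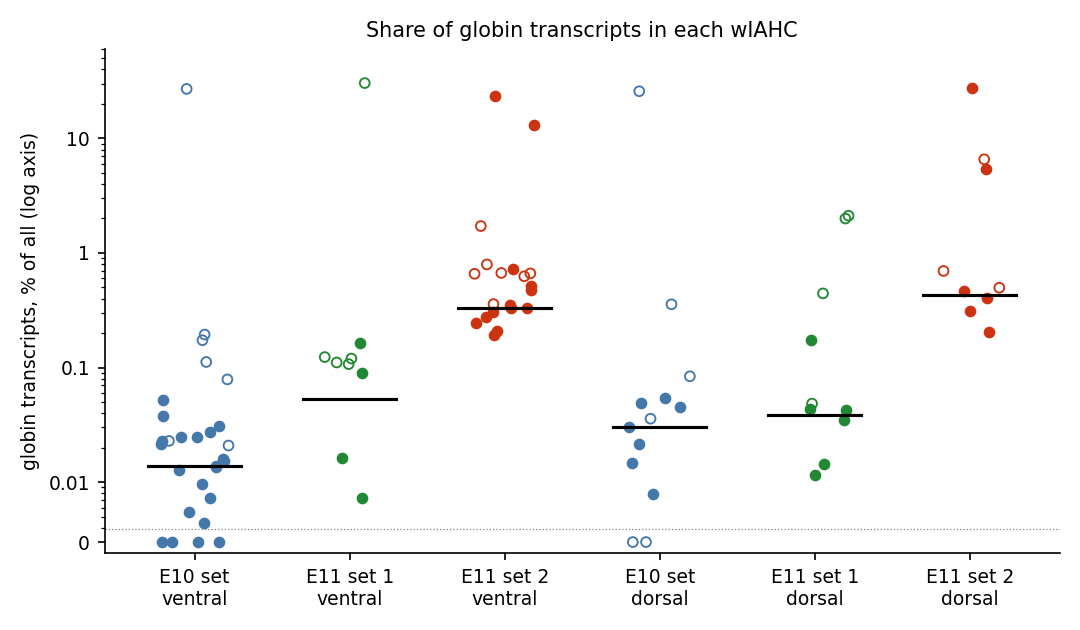
Globin transcripts as a percentage of all transcripts in each wIAHC, by collection set and side, on a log axis with libraries at 0 drawn below the dotted line. Filled points are the 57 libraries with at least 5000 transcripts, open points are libraries with 1000 to 5000 transcripts, and black lines are medians of the filled points. All filled points of E11 set 2 lie at or above 0.192%, and open points above 20% occur at E10 and in E11 set 1.

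Each embryonic gene showed this order. Hbb-y made up 0 to 0.0495% (median 0.00993%) of transcripts at E10, 0 to 0.0938% (median 0.0233%) in E11 set 1 and 0.0966% to 12.6% (median 0.222%) in E11 set 2. The set 2 libraries did not overlap with the others, although the gap to set 1 was small. Hbb-bh1 made up 0 to 0.0247% (median 0), 0 to 0.0272% (median 0.00454%) and 0.0346% to 8.0% (median 0.093%) in the same 3 sets, also without overlap of set 2. Hba-x made up 0 to 0.0183% (median 0), 0 to 0.0456% (median 0.00872%) and 0.0163% to 5.92% (median 0.0546%), and here set 2 overlapped with both other sets.

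The stage difference was tested with edgeR's quasi-likelihood test across all genes, with Benjamini-Hochberg adjustment at 0.05. On the ventral side, 53 of 260 genes tested (20.4%) rose at E11. Hbb-y was higher by a log2 fold change of 6.60 ± 0.92 (SE, adjusted p = 6.906e-08) and Hbb-bh1 by 8.13 ± 1.17 (1.251e-07). At E10, Hbb-bh1 was at 0 in 13 of the 21 ventral libraries, so the size of its change is loose. Hba-x, at 0 in 16 of them, had a fitted value of 8.78 ± 1.2. On the dorsal side, 21 of 260 genes (8.08%) rose, and the values were 7.12 ± 1.61 for Hbb-y (edgeR adjusted p = 0.001749), 7.26 ± 1.78 for Hbb-bh1 (0.004921) and 6.64 ± 1.75 for Hba-x. All 3 genes entered this fit only through E11. The filter asked for 10 counts at the median depth in 7 libraries, which Hbb-y reached in 2 libraries of set 1 and 19 of set 2, Hbb-bh1 in 11 and Hba-x in 9 of set 2, and none of them in any E10 library. A gene so chosen had to be high at E11, so these p-values are no support beyond the levels themselves. In the edgeR fit without a filter the values were 6.18 for Hbb-y and 7.73 for Hbb-bh1 on the ventral side and 6.05 and 6.16 on the dorsal side, and all 4 passed. The 4 adult genes were too rare to pass the filter on low counts, so no adult gene was tested here. The embryos of the wIAHCs are not named, so these p-values measure the spread between wIAHCs, some of which may share an embryo.

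The size of this difference depended on few libraries. Without the 4 libraries of at least 1% globin, all of them in E11 set 2, the ventral values were 3.73 ± 0.44 for Hbb-y and 4.52 ± 0.59 for Hbb-bh1. On the dorsal side they were 3.06 ± 0.78 and 2.59 ± 0.90, and Hba-x no longer passed the filter. These libraries were left out by their globin after the data were seen, so no call is read from these values. Lowering the depth minimum to 2000 transcripts let in libraries of E10 and set 1 with up to 27.0% and 30.4% globin. Neither Hbb-y (2.15 on the ventral and 0.54 on the dorsal side, edgeR adjusted p = 0.0588 and 0.880) nor Hbb-bh1 then passed. With the minimum raised to 10000, none of Hbb-y, Hbb-bh1 and Hba-x passed on the dorsal side, where edgeR called 3 of 490 genes. With DESeq2 on all 57 libraries, the ventral values were 3.95 for Hbb-y, 4.22 for Hbb-bh1 and 4.75 for Hba-x.

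Each E11 set was also set against E10 in a fit of all 57 libraries. The genes again entered through set 2 and, for Hbb-y, 2 libraries of set 1, so the values of set 2 are given as a description with no call. In set 2 ventral wIAHCs, where 17% of 347 genes rose over E10, Hbb-y was higher by 6.89 ± 0.71, Hbb-bh1 by 8.50 ± 0.91 and Hba-x by 9.13 ± 1.00. In set 2 dorsal wIAHCs, where 6.63% rose, the values were 8.13 ± 1.28 for Hbb-y, 8.26 ± 1.4 for Hbb-bh1 and 7.70 ± 1.44 for Hba-x. In set 1, 9.51% of genes rose over E10 on the ventral side, but Hbb-y (1.4 ± 1.3, edgeR adjusted p = 0.546), Hbb-bh1 (1.7 ± 2.15, 0.665) and Hba-x (3.03 ± 2.23, 0.425) did not pass. Replicates of set 1 are counted here in order among the ventral wIAHCs used, not by label number. Without ventral replicate 2, 20 of 380 genes rose on this side, against 33 of 347 with it, and the value of Hbb-y was smaller. On the dorsal side of set 1, where 2.59% rose, Hbb-y (1.49 ± 1.71, 0.687), Hbb-bh1 (0.41 ± 2.52, 0.990) and Hba-x (1.1 ± 2.37, 0.865) did not pass either. These comparisons share the E10 libraries.

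The 4 libraries of at least 1% globin also set the spread of these fits. Leaving them out was chosen after seeing the data and by globin itself, so no call is read from the globin values without them. In set 1 ventral wIAHCs, 11.7% of genes then rose, and the values were 3.15 ± 0.81 for Hba-x and 1.43 ± 0.57 for Hbb-y. In set 2, where 16.6% of genes then rose on the ventral and 4.57% on the dorsal side, the values were 4.08, 4.92 and 5.24 on the ventral side and 4.21, 3.84 and 3.11 on the dorsal side for Hbb-y, Hbb-bh1 and Hba-x.

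The difference between the E11 sets was tested directly, with side in the fit. In set 2, 22 of 167 genes (13.2%) were higher than in set 1. Hbb-y was higher by 5.96 ± 1.19 (edgeR adjusted p = 5.835e-04) and Hbb-bh1 by 7.21 ± 1.38 (4.415e-04). Hba-x had a value of 6.29 ± 1.4. Hbb-bh1 and Hba-x reached the count minimum in set 2 alone, and Hbb-y in 2 libraries of set 1 and all 19 of set 2, so the limit named for the stage fit holds here. Without a filter, the values of 5.53 for Hbb-y and 6.76 for Hbb-bh1 also passed. Without the libraries of at least 1% globin, 10.1% of genes were higher, with Hbb-y at 2.70 ± 0.42 and Hbb-bh1 at 3.32 ± 0.44. Since those libraries were left out by their globin, no call is read from these 2 values. With at least 2000 transcripts per library, Hbb-y at 0.33 and Hbb-bh1 at 1.08 did not pass (edgeR adjusted p = 0.901 and 0.478). With at least 10000 none of the 3 genes passed (0.0541 to 0.0998). What the column names call set 1 and set 2 is not described further in the sources used here, so any difference in day, embryos or handling cannot be told apart from the set.

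Neither Hbb-y nor Hbb-bh1 passed the test between ventral and dorsal wIAHCs. At E11 the ventral-to-dorsal log2 difference was -0.42 ± 0.79 for Hbb-y and -0.37 ± 0.83 for Hbb-bh1 (edgeR adjusted p = 0.938 and 0.951). At E10 it was 0.10 ± 1.5 and -1.25 ± 2.34 (0.982 and 0.93). The values of Hba-x in this fit, from which no call is read, were -0.02 ± 0.83 at E11 and -2.17 ± 2.6 at E10. Hbb-y changed sign between settings in both comparisons, and the standard errors leave room for differences of several-fold. Of 260 genes, 0 were called between sides at E11, with 25 at an unadjusted p under 0.05, and DESeq2 called 1. At E10, 0 were called, with 20 at an unadjusted p under 0.05, and DESeq2 called 0. Within set 2 alone the E11 differences were -1.0, -0.98 and -0.66 (edgeR adjusted p = 0.774 to 0.886), and within set 1 they were 0.13, 0.11 and -0.16 (0.989). The interaction of stage and side gave 0 calls with edgeR, 23 at an unadjusted p under 0.05 and 0 with DESeq2, and its values were -0.52 for Hbb-y and 0.87 for Hbb-bh1 (edgeR adjusted p = 0.985 and 0.969).

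**Figure D4:**
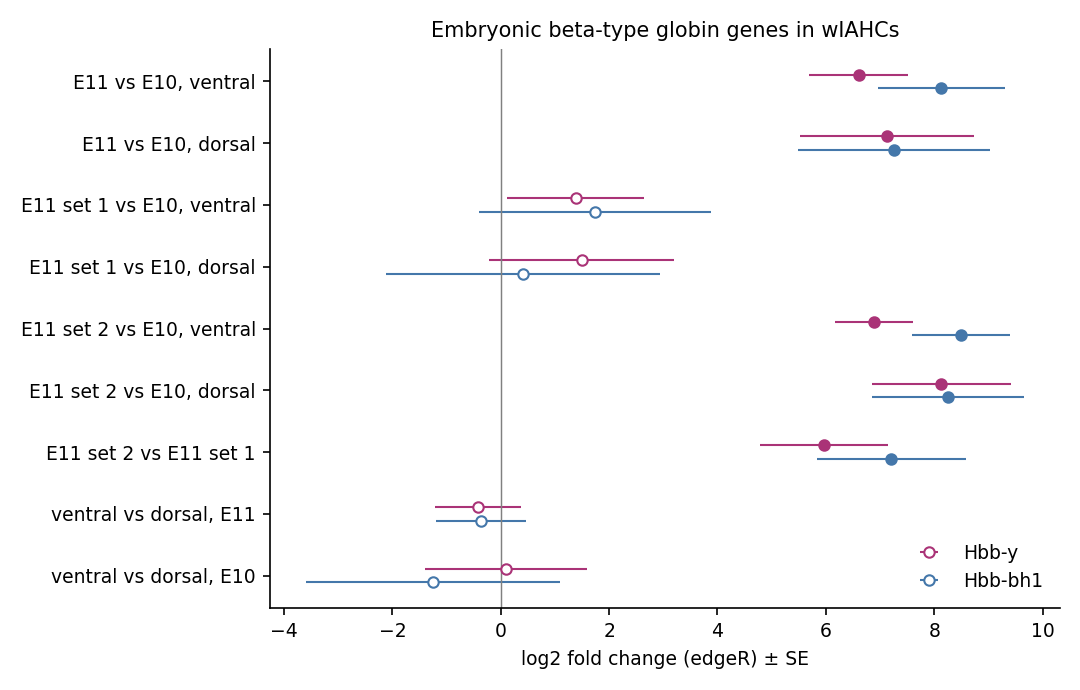
Log2 fold changes of Hbb-y and Hbb-bh1 between groups of wIAHCs, from edgeR, with standard errors as bars. Filled points passed an adjusted p of 0.05 and open points did not: the stage comparisons and those of E11 set 2 with E10 or with set 1 are filled, and those of set 1 with E10 and of the 2 sides are open. Both genes entered these fits only through E11 libraries. A filled point thus marks the threshold only and is no support beyond the levels themselves.

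The 4 libraries with the most globin were the set 2 dorsal wIAHC number 16 with 27.5%, the ventral numbers 9 and 7 with 23.6% and 13.2%, and the dorsal number 24 with 5.39%. In wIAHC number 7, Hbb-y had used up every possible UMI sequence, beyond which transcripts cannot be counted, and was written as 1597 transcripts, and by observed UMIs its globin share was 3.86%. These libraries held red cell genes and few genes of IAHC cells. All 8 erythroid markers were seen, at 0.0543% to 0.410% of transcripts, as were all 11 haem and iron genes (0.109% to 0.674%) and all 17 red cell genes (0.236% to 0.525%). Of 7 megakaryocyte and 7 macrophage markers none was seen, and Ptprc (CD45) was at 0, as were 4 of 8 endothelial markers. The other 4 IAHC markers summed to 0.0032% to 0.0362%, against 0.0361% to 0.165% for all 5 in the rest of set 2.

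The 15 other libraries of set 2 held 0.192% to 0.725% globin with few other red cell transcripts. Erythroid markers summed to 0 to 0.0176% (median 0.00353%), with Gata1 and Rhag at 0, against 0 to 0.0146% (median 0.00122%) in set 1, with Gata1 and Slc4a1 among those at 0, and 0 to 0.00853% (median 0) at E10, with Alas2 and Slc4a1 among those at 0. Per 100 globin transcripts there were 1.90 marker transcripts in these 15 libraries and 2.26 in the 4 libraries of at least 1% globin, against 5.02 in set 1 and 7.07 at E10. IAHC markers had a median of 0.103% in the 15 libraries, 0.189% in set 1 and 0.122% at E10. The part of red cells in the globin of these libraries was not tested.

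In all groups of wIAHCs, Hbb-y made up the most of globin. Hbb-y made up 59.9% to 84.6% (median 70.9%) of the embryonic beta-type pair in the 15 libraries of set 2 under 1% globin, and 55.1% to 73.1% (median 63.2%) in all 11 libraries of at least 1% globin and 1000 transcripts. Of the summed globin of these 11 libraries, Hbb-y was 42.4%, Hbb-bh1 27.9%, Hba-x 24.7%, Hba-a1 3.0%, Hba-a2 1.2%, Hbb-b1 0.432% and Hbb-b2 0.363%. In the 15 libraries, Hbb-y was 59.3%, Hbb-bh1 23.9% and Hba-x 15.8%, and each adult gene was at most 0.439%. At E10 the shares were 69.8%, 15.4% and 10.3%, with Hbb-b1 at 4.49% as the only adult gene, from a sum of 156 transcripts over 28 libraries. In set 1 they were 57.6%, 15.1% and 22.3%, with Hba-a1 at 5.04% as the only adult gene, from 99.8 transcripts over 10 libraries. The adult shares at E10, in set 1 and in the 15 libraries each rest on few transcripts, so they are not ranked and no order with globin amount is read. These shares are sums that libraries with more globin dominate, and no test was run on them.

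Adult transcripts were seen in 5 of 28 wIAHCs at E10, 3 of 10 in E11 set 1 and 9 of 19 in E11 set 2, and above 0.0123% of transcripts only in E11 set 2 among the 57 libraries. At E10, Hba-a1, Hba-a2 and Hbb-b2 were at 0 in all 28 libraries and Hbb-b1 was seen in 5, at up to 0.00416%. In set 1, Hba-a1 was seen in 3 of 10 libraries at up to 0.0123% and the other 3 genes in none. In set 2, Hba-a1 was seen in 7 of 19 libraries, Hba-a2 in 5, Hbb-b1 in 6 and Hbb-b2 in 3, and adult genes together reached 1.32%. With libraries of at least 2000 transcripts, adult genes reached 1.58% in set 1, 1.32% in set 2 and 0.234% at E10. No test is given for adult genes, since Hba-a1, which alone passed the filter in the fit by set, was at 0 in all E10 libraries.

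None of the 13 transcription factors, 11 haem genes and 17 red cell genes passed the low-count filter in the fit by stage and side, so their stage difference could not be read beside that of globin there. DESeq2, which tested 7, 8 and 4 of them on the ventral side, called Car2 (carbonic anhydrase) higher at E11 and no other gene of the 3 lists. Of the 4329 genes it tested there, it called 169 higher and 75 lower, 5.64% in all. On the dorsal side it called Tal1 alone of the 3 lists, and 48 genes higher and 13 lower of 3554, 1.72% in all. Without the filter, edgeR called 1 of 13 factors (Klf1), 3 of 11 haem genes (Alas2, Cpox and Slc25a37) and 9 of 17 red cell genes higher at E11 on the ventral side and none lower, with list medians of 0.07, 0.91 and 2.00 beside -0.10 over all genes. It called 184 of all 13627 genes higher there and 126 lower, 2.27% in all. Red cell genes made up 0.236% to 0.525% of transcripts in the 4 libraries of at least 1% globin. In the rest of set 2 they made up at most 0.0658%, and the part of the globin-rich libraries in these calls was not tested. On the dorsal side it called none of the 3 lists, and 25 genes higher and 82 lower, 0.785% in all.

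Over the 57 wIAHCs, the genes whose log2 level was most like that of the embryonic globins were Rps10 (Pearson r 0.704), Rps15a-ps6 (0.659), Rps16 (0.638) and Rpl36 (0.637), and they included Rn45s (0.577) and Rplp1 (0.563). All of these but Rn45s are ribosomal protein genes or their pseudogenes. Without the 4 libraries of at least 1% globin these 6 genes had r of 0.411 to 0.633. The libraries share collection sets, and these values describe them only.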

How the data were processed

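Libraries were made with CEL-Seq and, per the submitters' processing notes, BWA 0.6.2-r126 and the build mm10 were used. What the authors deposited are estimated counts, that is, transcripts inferred from UMIs. Single cells had been down-sampled by the authors and raised by 0.1, which was taken off. wIAHC values had been corrected for UMI collisions and not scaled for depth, and undoing the correction with 256 UMI sequences gave whole numbers (largest deviation 3.13e-13). The 90 ERCC entries took no part in the tests. The 52 wIAHCs with fewer than 5000 transcripts entered them only in the alternative with a minimum of 2000, where they reached it.

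Counts were rounded and tested with edgeR 4.0.16 in R 4.3.3 (TMM, filterByExpr, quasi-likelihood test, Benjamini-Hochberg over all genes tested). DESeq2 1.42.0 was the second tool. The edgeR step was tested on simulated data. Intervals (scipy 1.17.1) are at 95% and cover counting error only, and a count of 0 cells was read as allowing up to 3. Alternatives were other tools, scalings, filters, depth minimums (2000 or 10000), observed UMIs, single sets and left-out libraries. Described genes were all members, the genes of the fixed lists and the 8 non-globin genes of most similar level in single cells and in wIAHCs. Some of these genes are not reported here. Members and lists were chosen with earlier results of these data known. A list of cell barcodes was not used here.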

Additional observations from a re-analysis of the deposited data

Results flagged for a closer look

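Globin and its 3 embryonic genes were checked for a library far from the others in each group of 4 to 10 wIAHCs. Of 16 such checks 7 found one, where chance gives about 1 in 20, but the checks are not independent: the 7 lie in 2 groups and come from 1 library in each. In the dorsal wIAHCs of E11 set 1, a single library stood apart with 0.174% globin, 0.0272% Hbb-bh1 and 0.0456% Hba-x. In the dorsal wIAHCs of E11 set 2, another stood apart with 27.5% globin, 12.6% Hbb-y, 8.0% Hbb-bh1 and 5.66% Hba-x.

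The rise from E10 to E11 differed between the collection sets. Fitted log2 values (edgeR) of set 2 lay above those of set 1 by 5.96 for Hbb-y, 7.21 for Hbb-bh1 and 6.29 for Hba-x. Hbb-bh1 and Hba-x reached the count minimum in set 2 alone, and Hbb-y in 2 libraries of set 1 and 19 of set 2. No call is therefore read from these values. For Hbb-y and Hbb-bh1, every library of set 2 lay above every library of set 1 among those of at least 5000 transcripts. Hba-x passed the filter here only with the globin-rich libraries of set 2.

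Globin was also high in 7 libraries that held 1000 to 5000 transcripts. These were the E10 ventral wIAHC number 19 with 27.0%, the E10 dorsal number 42 with 25.8%, the E11 set 1 ventral number 5 with 30.4%, the E11 set 1 dorsal numbers 12 and 13 with 2.12% and 2.00%, the E11 set 2 dorsal number 14 with 6.57% and the E11 set 2 ventral number 26 with 1.72%. The last 3 of these, with numbers 13, 14 and 26, entered no test, and the other 4 only where the depth minimum was lowered to 2000. By observed UMIs the shares of numbers 19, 42 and 5 were 18% to 19%. Over the 7, 7 of 8 erythroid markers were seen and none of 7 megakaryocyte or 7 macrophage markers, so libraries rich in globin were found at both stages and in each set. Beside these, the medians of all libraries of at least 2000 transcripts were 0.0215% at E10, 0.0692% in E11 set 1 and 0.480% in E11 set 2.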

How the results depend on the processing

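No paired test was run, since wIAHC numbers differ between groups and single-cell populations are 1 sample each. The 2 types of pre-HSCs share set numbers, and type I had the higher level in each, which was not tested. Depth limits all adult genes and the globin of non-HE and EHT cells. The cause of the changes below was not tested. With libraries of at least 2000 transcripts, which lets in globin-rich wIAHCs of E10 and set 1, Hbb-y and Hbb-bh1 no longer passed: log2 2.15 (edgeR adjusted p = 0.0588) and 1.8 on the ventral side, 0.54 and 0.16 on the dorsal side and 0.33 and 1.08 between sets, and Hba-x fell under the filter. With at least 10000, the dorsal values were 2.83, 2.52 and 2.26 and those between sets 4.22, 5.53 and 4.6, none of which passed. Without the libraries of at least 1% globin, dorsal Hbb-bh1 was at 2.59 and set 1 ventral Hba-x at 3.15. Those libraries were left out by globin itself, so no call is read there. Set 1 alone gave 1.4, 1.7 and 3.03 on the ventral and 1.49, 0.41 and 1.1 on the dorsal side. Leaving out each ventral wIAHC of set 1 changed no globin call, with Hbb-y between sets at 5.76 to 6.47. The genes entered these fits through E11 libraries, so calls that were kept add no support. Without ventral replicate 2 of set 1, the genes called in set 1 against E10 on the ventral side fell from 50 of 347 to 32 of 380. The value of Hbb-y fell from 1.4 to 0.27.

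Hbb-y turned sign between sides at E11 without a filter (0.30), at 2000 (0.37), at 10000 (3.22) and without the libraries of at least 1% globin (0.78), at E10 with DESeq2 (-0.34) and at 2000 (-1.24), and in the interaction under the 4 settings named for E11 (0.13, 1.61, 2.6 and 0.66). None of these passed.

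The settings tested unlike numbers of genes, so each count of calls is given with that number. On the ventral side 86 of 260 were called, against 244 of 4329 with DESeq2, 310 of 13627 without a filter and 50 of 347 in set 1 alone. On the dorsal side 26 of 260 were called, against 61 of 3554, 107 of 13627 and 13 of 347 in the same settings. Without TMM 51 of 260 were called there, and at 10000 3 of 490. Between sets 38 of 167 were called, against 81 of 12265 without a filter, 23 of 131 at 2000 and 8 of 323 at 10000. Between sides at E11, DESeq2 called 1 and edgeR without a filter 12 of 13627. At E10 the latter called 8 and in the interaction 21, of as many genes. TMM moved the balance of calls: 53 higher and 33 lower on the ventral side with it, 30 and 53 without, and 21 and 5 against 16 and 35 on the dorsal side, where the median of all genes moved from 0.02 to -0.23. The globin genes passed either way, but they entered the fit only through E11 libraries, so this adds no support beyond the levels.

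Single-cell levels per 10000 moved with the sorted set: EHT 0.313, 0 and 0.0383, E10 HE 0.270 and 3.55, E11 non-HE 0.909 and 0, E11 c-kit+ IAHC 4.0, 0.400, 0 and 0.154 (0.659 without the highest cell), c-kit+ CD31+ IAHC 0.560, 0.245 and 0.186, type I pre-HSCs 0.250, 3.65 and 15.8 and type II 0.200, 3.44 and 9.30. Over all alternatives, 180 values that answer a comparison kept their direction and side of the threshold or moved less than the spread, 36 moved further, 19 no longer passed and 1 newly passed.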
